A study of Mus musculus with 8 samples.

Results

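The 9 genes described here encode the vascular endothelial growth factor (VEGF) ligands Vegfa, Vegfb, Vegfc and Pgf, the receptor tyrosine kinases Flt1, Kdr and Flt4, and the neuropilin co-receptors Nrp1 and Nrp2. They were taken by symbol from the 53465 genes of the deposited table, and all 9 were among the 15388 genes that passed the filter on low counts. RNA-seq was performed on heart ventricles of mouse embryos at embryonic day 15.5 (E15.5), in 4 libraries labelled WT and 4 libraries labelled Nrg-1flox;Cdh5-CreERT2, with 1 ventricle per library by the design text. In the latter line, a tamoxifen-inducible Cre recombinase driven by the promoter of Cdh5 (VE-cadherin, an endothelial adhesion gene) is meant to delete floxed Nrg1, the gene for the growth factor neuregulin-1, in endothelial cells. The labels used here do not give the day of tamoxifen, the sex of the embryos, or whether the WT embryos carried the floxed allele, the Cre or tamoxifen. The comparison asks how ventricles in which endothelial Nrg1 was targeted differ from WT ventricles.

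VEGF ligands are secreted dimers that act mainly on endothelial cells. VEGFA binds the receptor encoded by Kdr (VEGFR2), which carries most of the proliferative signal, and also the receptor encoded by Flt1 (VEGFR1), which binds it tightly but signals weakly and is also made in a soluble form that traps ligand. Of the receptor tyrosine kinases, VEGFB and the placental growth factor PGF bind the Flt1 product only. VEGFC acts through the receptor encoded by Flt4 (VEGFR3) in lymphatic and sprouting vessels. Neuropilins present ligands to these receptors and also bind class 3 semaphorins. In the fetal ventricle, cardiomyocytes are a main source of VEGF ligands, and the endocardium and coronary vessels carry the receptors. Gene-level counts do not separate splice forms, so soluble Flt1 and the VEGFA isoforms are not resolved.

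The sequences directly upstream of Vegfb and Kdr are shown because Vegfb was the single member that passed the test over all genes and Kdr the member with the next smallest p. Both were read from RefSeq promoter windows of GRCm38.p6, on the minus strand and 5′ to 3′, and end where the annotated gene begins (chr19:6987652-6987901 for Vegfb and chr5:75978459-75978705 for Kdr). Capitals mark the GC box GGGCGG on either strand, which reads CCGCCC on the other strand.
Vegfb upstream: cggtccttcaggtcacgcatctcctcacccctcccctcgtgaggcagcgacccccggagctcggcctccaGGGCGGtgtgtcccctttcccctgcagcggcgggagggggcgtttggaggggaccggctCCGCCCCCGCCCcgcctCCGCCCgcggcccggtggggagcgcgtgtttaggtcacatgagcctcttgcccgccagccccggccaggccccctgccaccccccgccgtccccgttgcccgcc
Kdr upstream: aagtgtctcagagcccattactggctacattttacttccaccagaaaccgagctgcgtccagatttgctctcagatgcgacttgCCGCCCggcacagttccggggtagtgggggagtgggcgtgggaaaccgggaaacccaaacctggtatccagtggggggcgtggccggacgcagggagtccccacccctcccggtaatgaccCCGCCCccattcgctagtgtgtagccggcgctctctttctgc
The Vegfb stretch had a GC content of 76.4% and held 4 GC boxes, and the Kdr stretch had a GC content of 61.5% and held 2. All 9 members matched the promoter table, with 11 windows between them. Their GC content was 59.3% to 75.3%, against a median of 52.7% over 32851 windows of the same length. A GC box stood in 10 of the 11 windows and in 35.7% of all windows. ACGTG, a form of the core of the hypoxia response element, was found in 1 member window and in 19.6% of all windows. The member window was that of a Vegfa start inside the annotated gene (chr17:46025114-46025413). The Vegfa window at the annotated 5′ end of the gene (chr17:46032328-46032627) did not hold it. The form GCGTG was not searched, and it occurs in both printed stretches. The ETS core was searched in a pair of forms that differ in their first letter. CGGAAG was in none of the 11 windows and in 16.9% of all windows. The form AGGAAG was in the windows of Flt1 and Nrp1 and in 35.4% of all windows. TATAAA was found for Flt1 alone (13.6% of all windows). Each motif was searched on both strands, and a match describes letters, not factor binding.

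The libraries held 16761763 to 24144272 expected counts, and the member with the fewest reads, Pgf, had at least 62 counts in each. Levels are given in CPM, which are counts brought to an equal library size by TMM factors, and values after ± are SD over the 4 libraries of a group (n = 4). The targeted gene did not bear out the labels. Nrg1 (chr8:31814551-32884029) averaged 4.87 ± 0.636 CPM in WT libraries, against 6.17 ± 0.611 CPM in those labelled as deleted (log2 fold change 0.34, SE 0.120, adjusted p = 0.311 by edgeR). Gene-level counts include other cell types and exons outside a floxed segment. These libraries are called labelled-Flox from here on, and each direction is that of labelled-Flox relative to WT. The libraries also differed in sex-linked transcripts. The summed level of 4 Y-linked genes was 69.3 to 171 CPM in WT, where the labelled-Flox range was 42.9 to 120 CPM. Xist, a transcript of female cells with a silenced X chromosome, was at 103 to 327 CPM in 7 libraries and at 0.176 CPM in WT library 4. Thus 7 of the 8 libraries held both Xist and Y-linked transcripts, which goes against 1 embryo per library, and a fit that takes the Y-linked level as covariate was made. The value from this fit is given beside a result where it ended the call, turned the direction or moved the fold change by over 1.5 times. For Angpt2 and the neighbours of Vegfb, the range over all alternatives is given instead. The range of the Y-linked sum lay lower in labelled-Flox libraries, so this fit also takes up part of any group difference. Sex-linked and group differences cannot be fully told apart in it. Nothing in the labels says whether the libraries of a group come from separate litters, so p-values measure the spread between these libraries.

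Among the 9 members, 1 rose (Vegfb) and 8 did not pass at an adjusted p below 0.05 in edgeR's quasi-likelihood test over all 15388 genes, of which 81 (0.526%) passed. The fold changes were small. Their median was -0.09 on the log2 scale, against -0.0012 over all tested genes, and their median absolute value was 0.14, against 0.06. Of the members, 6 had an unadjusted p below 0.05, against 10.5% of all tested genes. The libraries of the 2 groups were fully separated for 2 members, Vegfb and Kdr, against 6.05% of all tested genes. The log2 fold change was above 0 for Vegfa, Vegfb and Nrp1 and below 0 for the other 6 members, and 50.6% of all tested genes were below 0. Members were proposed with results of these data known, so these counts describe the family and support nothing further.

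**Figure D1:**
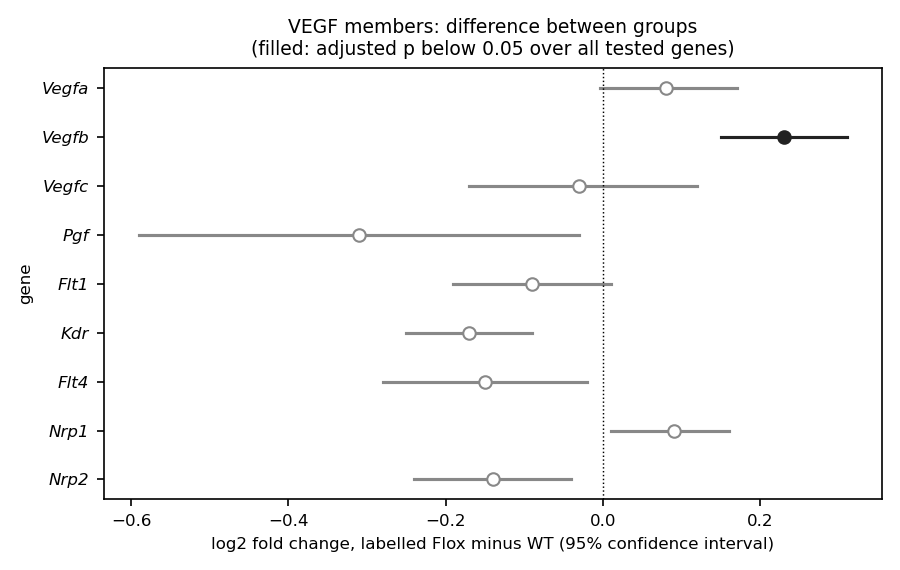
Log2 fold change (horizontal axis, labelled-Flox minus WT) of each VEGF member (vertical axis) with its 95% confidence interval from edgeR. Filled points have an adjusted p below 0.05 over all tested genes, which holds for Vegfb at 0.23. The intervals of Vegfa, Vegfc and Flt1 include 0.

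Of the ligands, Vegfb (ENSMUSG00000024962, chr19:6982473-6987651, minus strand), which is abundant in heart muscle, measured 115, 107, 109 and 105 CPM in the WT libraries, in order of their numbers (as for all values below), and 128, 127, 135 and 121 CPM in the labelled-Flox libraries. Every labelled-Flox library thus lay above every WT library. Vegfb rose by 17.1%, from 109 ± 4.12 to 128 ± 5.56 CPM (log2 fold change 0.23, SE 0.0388, 95% confidence interval 0.15 to 0.31, adjusted p = 0.0279). It ranked 31 of 15388 by p. The call did not survive the loss of WT library 2, 3 or 4 or of labelled-Flox library 1, 2 or 3, with adjusted p between 0.0612 and 0.111. It was also lost when the Y-linked level was added as a covariate (log2 fold change 0.19, adjusted p = 0.182) and after a GC and length correction (0.18, adjusted p = 0.0502). The longest Vegfb transcript has a GC content of 62.6%, and the part of base composition and of the sex-linked difference in the rise was not tested beyond these fits.

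Vegfa (ENSMUSG00000023951, chr17:46016993-46032369), the main ligand of the Kdr product, was at 115, 109, 117 and 116 CPM in WT libraries, against 126, 126, 115 and 116 CPM in labelled-Flox ones. Labelled-Flox libraries 1 and 2 were above all WT libraries, and libraries 3 and 4 lay within the WT range. The means were 114 ± 3.60 and 121 ± 6.05 CPM (log2 fold change 0.08, 95% confidence interval -0.0036 to 0.17, adjusted p = 0.501).

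Pgf (ENSMUSG00000004791, chr12:85166635-85177790), which shares the Flt1 receptor with Vegfb, had the largest fitted change of the 9 and the fewest reads. It was at 4.95, 4.81, 4.26 and 5.49 CPM in WT libraries, against 3.39, 4.11, 4.57 and 3.65 CPM in labelled-Flox ones. Labelled-Flox library 3 was above WT library 3, so the groups overlapped. The means were 4.88 ± 0.506 and 3.93 ± 0.522 CPM (log2 fold change -0.31, 95% confidence interval -0.59 to -0.03, adjusted p = 0.424).

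Vegfc (ENSMUSG00000031520, chr8:54077606-54187096), a ligand of the Flt4 product, was at 15.9, 14.8, 15.5 and 14.2 CPM in WT libraries, against 15.3, 13.9, 14.4 and 15.8 CPM in labelled-Flox ones. The groups covered nearly the same range. Their log2 fold change was -0.03 (95% confidence interval -0.17 to 0.12, adjusted p = 0.936), and it ranged from -0.06 without labelled-Flox library 4 to 0.01 without labelled-Flox library 2, with -0.01 under the Y-linked covariate. Vegfd, the remaining ligand of Flt4 and X-linked, was not a member and stood at 3.64 ± 0.077 and 3.73 ± 0.246 CPM.

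**Figure D2:**
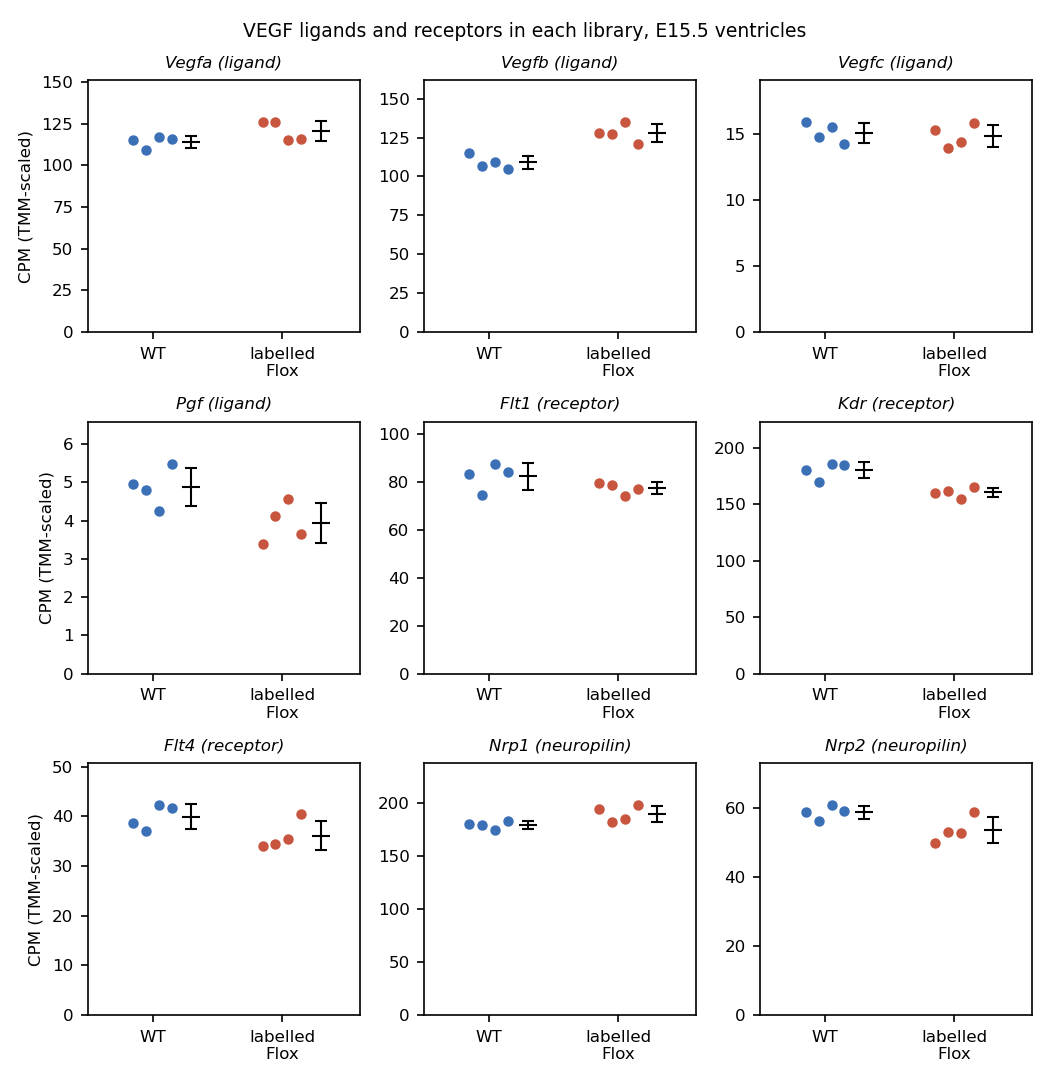
Level of each VEGF member in CPM (vertical axes, from 0, each gene on its own scale) in the 4 WT and 4 labelled-Flox libraries, shown as points in the order of library 1 to 4, with the mean and SD beside them. The points of Vegfb (105 to 115 against 121 to 135 CPM) and Kdr (170 to 186 against 155 to 165 CPM) do not overlap between the groups.

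Of the receptors, Kdr (ENSMUSG00000062960, chr5:75932827-75978458), the main signalling receptor of VEGFA, was at 180, 170, 186 and 185 CPM in WT libraries, against 160, 162, 155 and 165 CPM in labelled-Flox ones. The highest labelled-Flox library was below the lowest WT library. The means, 180 ± 7.39 and 161 ± 4.37 CPM, differed by -11.0% (log2 fold change -0.17, SE 0.0369, 95% confidence interval -0.25 to -0.09). Kdr ranked 125 by p and missed the threshold (adjusted p = 0.0693). It passed in 4 of 20 alternatives, namely with DESeq2 (adjusted p = 0.00377), the likelihood ratio test, no filter on low counts and without labelled-Flox library 4 (adjusted p = 0.0498). Under the Y-linked covariate its log2 fold change was -0.12 (adjusted p = 0.365).

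Flt1 (ENSMUSG00000029648, chr5:147561604-147726011) was at 83.2, 74.4, 87.6 and 84.1 CPM in WT libraries, against 79.4, 78.8, 74.1 and 77.0 CPM in labelled-Flox ones. WT library 2 was close to the lowest labelled-Flox library, while the other WT libraries were above all of that group. On the log2 scale the fold change was -0.09 (95% confidence interval -0.19 to 0.01, adjusted p = 0.535), and it was -0.14 without WT library 2 and -0.04 with the Y-linked covariate.

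Flt4 (ENSMUSG00000020357, chr11:49609263-49652739) was at 38.7, 37.1, 42.3 and 41.7 CPM in WT libraries, against 34.1, 34.4, 35.4 and 40.4 CPM in labelled-Flox ones. Labelled-Flox library 4 lay within the WT range and the other 3 below it. For Flt4 the log2 fold change was -0.15 (95% confidence interval -0.28 to -0.02, adjusted p = 0.389), and -0.04 with the Y-linked covariate. The expected counts of Flt4 and of Nrp2 were not whole in any of the 8 libraries, so some of their reads were shared out between genes by the estimation and their values are less certain. Counts were also not whole in 6 libraries for Vegfa, 5 for Flt1 and 1 for Nrp1.

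The neuropilins differed in direction. Nrp1 (ENSMUSG00000025810, chr8:128358604-128503363), a co-receptor of VEGFA in blood vessels, was at 180, 179, 174 and 183 CPM in WT libraries, against 194, 182, 185 and 198 CPM in labelled-Flox ones. Labelled-Flox library 2 alone reached into the WT range. The exons of Nrp1 hold the microRNA gene Mir1903, so a few of its reads could be shared. The means were 179 ± 3.46 and 190 ± 7.25 CPM (log2 fold change 0.09, 95% confidence interval 0.01 to 0.16, adjusted p = 0.399).

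Nrp2 (ENSMUSG00000025969, chr1:62703285-62818695), linked more to veins and lymphatics, was at 58.9, 56.4, 60.9 and 59.1 CPM in WT libraries, against 49.9, 53.0, 52.8 and 58.8 CPM in labelled-Flox ones. As for Flt4, labelled-Flox library 4 lay within the WT range and the other 3 below it. For Nrp2 the log2 fold change was -0.14 (95% confidence interval -0.24 to -0.04, adjusted p = 0.295), -0.18 without labelled-Flox library 4 (adjusted p = 0.0525) and -0.08 with the Y-linked covariate. That library also had the highest Y-linked sum of its group, at 120 CPM, and whether this bears on its Nrp2 and Flt4 levels was not tested.

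Levels of different genes can be compared only per length, here as CPM per kilobase of annotated exon. Vegfb was the most abundant member, at 68.0 ± 2.57 in WT libraries and 79.6 ± 3.47 in labelled-Flox libraries. Vegfa followed at 26.7 ± 0.839 and 28.2 ± 1.41. Kdr (20.0 ± 0.818) was above Nrp1 (18.3 ± 0.353) in WT, and the order was the other way round in labelled-Flox libraries (17.8 ± 0.484 and 19.4 ± 0.741), with no overlap between the genes' ranges in either group. Vegfc (6.06 ± 0.362 in labelled-Flox libraries) and Flt1 (5.72 ± 0.177) did not differ beyond their spread, nor did Nrp2 (4.53 ± 0.315) and Flt4 (4.39 ± 0.357), and the same held in WT. Pgf was the lowest at 1.68 ± 0.174 in WT and 1.35 ± 0.180 in labelled-Flox libraries. Exon length counts all annotated exons, including ones that ventricles may not use, so the order is approximate.

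Ratios within a library do not depend on its scaling. Those given here were chosen after the members' values were seen and carry no test. The ratio of Vegfa to Kdr, per kilobase, was 1.35, 1.35, 1.32 and 1.33 in WT and 1.66, 1.64, 1.57 and 1.48 in labelled-Flox libraries 1 to 4. The WT libraries were nearly equal, and all labelled-Flox libraries were higher. The ratio of Nrp1 to Nrp2 was 3.47 to 3.84 in WT and 4.07 to 4.71 in labelled-Flox libraries, and that of Vegfb to Pgf, ligands of the same receptor, 34.6 to 46.5 and 53.3 to 68.4. Between the receptors the ranges overlapped, at 0.293 to 0.314 and 0.312 to 0.331 for Flt1 to Kdr and at 0.235 to 0.249 and 0.233 to 0.269 for Flt4 to Kdr. For Vegfc to Flt4 they overlapped as well (1.15 to 1.38 and 1.32 to 1.51).

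**Figure D3:**
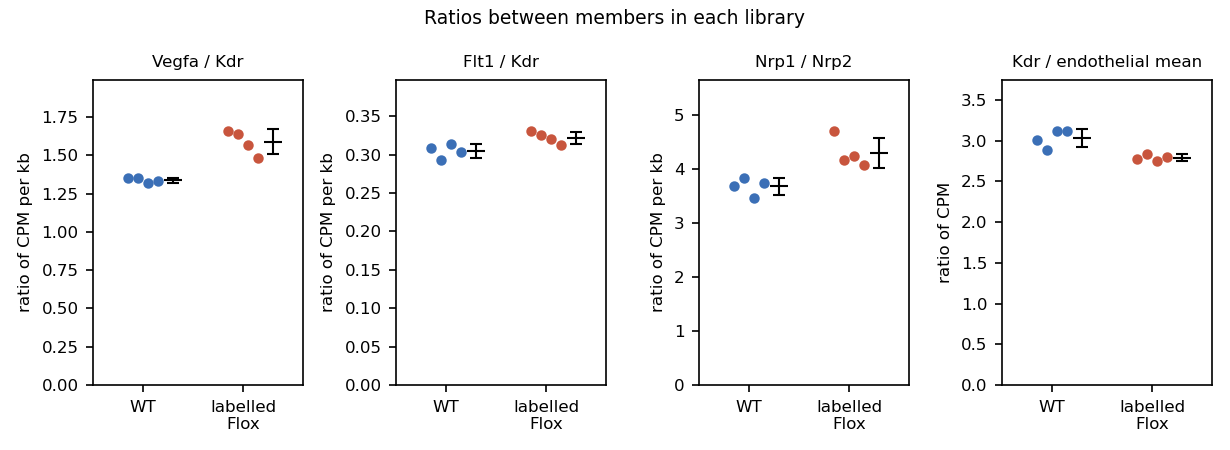
Ratios of expression (vertical axes, from 0) in each of 4 WT and 4 labelled-Flox libraries, with mean and SD. Vegfa to Kdr, Flt1 to Kdr and Nrp1 to Nrp2 are ratios of CPM per kilobase, and Kdr is also set against the geometric mean CPM of 17 endothelial genes. Vegfa to Kdr was 1.32 to 1.35 in WT and 1.48 to 1.66 in labelled-Flox libraries.

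Since the receptors are carried by endothelial cells, endothelial markers were examined beside them. In bulk tissue, fewer cells of a type and less RNA per cell cannot be told apart. Of 17 pan-endothelial genes outside the family, 13 had a log2 fold change below 0 and 4 above, with a median of -0.05. Of all tested genes, 50.6% were below 0. None of the 17 passed, and 6 had an unadjusted p below 0.05, against 10.5% of all tested genes. This list, like all lists here, was chosen with earlier results of these data known, so such counts only describe it. Their summed level was 1507 to 1539 CPM in WT libraries, against 1427 to 1530 CPM in labelled-Flox libraries, so that the sums overlapped, and no marker was at 0. Their geometric mean, which gives each gene equal weight, did not overlap between the groups, although the nearest libraries of each differed by less than the printed digits. The smallest p values belonged to the junction gene Esam (57.2 ± 0.343 and 51.4 ± 1.49 CPM, log2 fold change -0.15, adjusted p = 0.0584), the transcription factor gene Erg (-0.19, adjusted p = 0.0769) and the receptor gene Tie1 (-0.17, adjusted p = 0.121, and -0.11 with the Y-linked covariate). Cdh5, the gene whose promoter drives the Cre, was at 285 ± 4.39 and 287 ± 8.51 CPM.

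Set against the geometric mean of these 17 genes, which was 59.0 to 59.9 CPM over the WT libraries and 56.3 to 59.0 CPM over the others, Kdr was at 3.01, 2.88, 3.12 and 3.12 times the mean in WT and at 2.78, 2.84, 2.75 and 2.80 times in labelled-Flox libraries 1 to 4. Kdr was thus also lower relative to this mean in every labelled-Flox library. The mean joins genes of mixed direction, 13 below 0 and 4 above. Single genes among them fell about as much as Kdr (-11.0%), such as Erg (-12.2%) and Tie1 (-10.8%). Nrp1 was higher relative to the mean (2.91 to 3.09 and 3.20 to 3.37), though Nrp1 is also expressed outside the endothelium. For Flt1 (1.26 to 1.46 and 1.31 to 1.38), Flt4 (0.629 to 0.708 and 0.593 to 0.686) and Nrp2 (0.956 to 1.02 and 0.867 to 0.997) the groups overlapped.

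Markers of endothelial subsets gave few calls. Of 4 tested coronary and capillary genes, Aplnr, the apelin receptor gene of sprouting coronary endothelium, fell from a mean of 53.2 ± 3.08 CPM to 42.9 ± 1.25 CPM (log2 fold change -0.31, adjusted p = 0.0118). It missed the threshold at nearly the same fold change without labelled-Flox library 3 (-0.30, adjusted p = 0.0534) and with the Y-linked covariate (-0.31, adjusted p = 0.0649). Fabp4 (-0.06, ranging from -0.09 to -0.03 when 1 library was left out) and Gpihbp1 (-0.11, ranging from -0.17 to -0.03) did not pass. All 5 endocardial genes had a log2 fold change below 0 (median -0.07), against 50.6% of all tested genes. None of them passed, the smallest p being those of Hapln1 (-0.25), Nfatc1 (-0.15) and Tmem108 (-0.07). With the Y-linked covariate Hapln1 was at -0.10 and Nfatc1 at -0.09, and Tmem108 ranged from -0.11 without labelled-Flox library 4 to -0.02 without labelled-Flox library 3. None of 4 tested lymphatic genes passed (Lyve1 -0.17, Prox1 0.03 and Reln 0.10), and Prox1 is also made by cardiomyocytes. Their values moved with single libraries. Lyve1 ranged from -0.25 without WT library 1 to -0.04 without labelled-Flox library 1 and was at 0.0020 with the Y-linked covariate. Reln ranged from 0.01 without WT library 2 to 0.28 without WT library 4 and was at 0.33 with that covariate, and Prox1 ranged from 0.01 to 0.05. The part of cell composition in the values of the members was not tested.

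The wider pathway was followed with 4 lists holding 66 genes, of which 65 were tested and 3 (4.62%) passed, against 0.526% of all tested genes. These lists were chosen with earlier results of these data known, so the shares describe them and support nothing further. Processing and co-receptor genes had 1 call among 15 and a median log2 fold change of -0.01. An unadjusted p below 0.05 was found for 4 of them, against 10.5% of all tested genes. Sema3a, which encodes a semaphorin that binds the Nrp1 product, was at 24.1, 25.1, 22.1 and 22.4 CPM in WT libraries, against 14.9, 16.4, 14.5 and 19.4 CPM in labelled-Flox ones. Every labelled-Flox library was below every WT library. Sema3a fell from a mean of 23.4 ± 1.42 CPM to 16.3 ± 2.22 CPM (log2 fold change -0.53, SE 0.0836, adjusted p = 0.0194), and passed in 14 of 20 alternatives. The call was lost without WT library 1 or 2 or labelled-Flox library 1, 2 or 3 and with the Y-linked covariate, with an adjusted p of at most 0.0957, while the fold change stayed close to the reported one (-0.48 to -0.54 in those 5 fits and -0.51 with the covariate). The semaphorin co-receptor gene Plxnd1 (-0.13, adjusted p = 0.259) and Ptprb (-0.14, adjusted p = 0.393), a phosphatase of endothelial receptors, did not pass, and with the Y-linked covariate they were at -0.07 and -0.06. Of the factors that process VEGFC, Adamts3 was at 7.49 ± 0.477 and 8.11 ± 0.663 CPM and Ccbe1 at 0.754 ± 0.342 and 0.729 ± 0.273 CPM.

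Of 22 tested signal transducers, 1 fell and 21 did not pass, with a median of -0.01. Nos3, the endothelial nitric oxide synthase gene, was at 67.0, 68.4, 68.7 and 65.5 CPM in WT libraries, against 60.0, 59.7, 60.3 and 60.9 CPM in labelled-Flox ones. The spread within each group was small beside the gap between them. Nos3 fell with a log2 fold change of -0.16 (SE 0.0294, adjusted p = 0.0383), and the call held without labelled-Flox library 4 but in none of the other 7 fits that left out a library. It was also lost with the Y-linked covariate (-0.17, adjusted p = 0.115). Nos3 shares 1040 exonic bases with Gm15587 and 294 with Atg9b on the opposite strand, and whether counting used the strand is not given in the sources used here, so its value is uncertain. The adaptor genes Gab1 (0.09, adjusted p = 0.324) and Shb (0.11, adjusted p = 0.344) did not pass.

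Among 12 genes known to respond to VEGF in endothelium, 1 passed, and the median was -0.02. Nrarp, a Notch feedback gene, was at 32.4 ± 2.54 and 44.3 ± 2.29 CPM (log2 fold change 0.45, adjusted p = 0.0109). All bases of the shorter gene Gm38287 lie opposite Nrarp. Summed with that gene, Nrarp had a log2 fold change of 0.08 (adjusted p = 0.571), so its own direction is uncertain. Dll4, the Notch ligand gene of tip cells, was at 27.2 ± 1.27 and 22.2 ± 2.28 CPM (log2 fold change -0.29, adjusted p = 0.0869). Ets1 was at -0.14 (adjusted p = 0.135). Angpt2, an angiopoietin gene of remodelling vessels that was picked after its values were seen, was at 4.48 ± 0.983 and 2.88 ± 0.894 CPM (log2 fold change -0.66, adjusted p = 0.259). The fold change of Angpt2 depended on the fit and ranged from -0.86 to -0.38 over 20 alternatives.

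Hypoxia induces Vegfa through HIF factors, so 16 genes of that response were included. None passed, 13 had a log2 fold change above 0 (50.6% of all tested genes were below 0), and the median was 0.06. An unadjusted p below 0.05 was found for 3 of them, against 10.5% of all tested genes. The HIF subunit gene Epas1, prominent in endothelium, was at 97.5 ± 6.66 and 87.1 ± 2.06 CPM (log2 fold change -0.16, adjusted p = 0.146, and -0.10 with the Y-linked covariate). Bnip3 (0.13, adjusted p = 0.174) and Egln3 (0.20, adjusted p = 0.353), both HIF targets, were at higher means without passing, and Bnip3 overlaps another annotated gene, Gm45507. Egln3 was at 0.13 without labelled-Flox library 2.

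**Figure D4:**
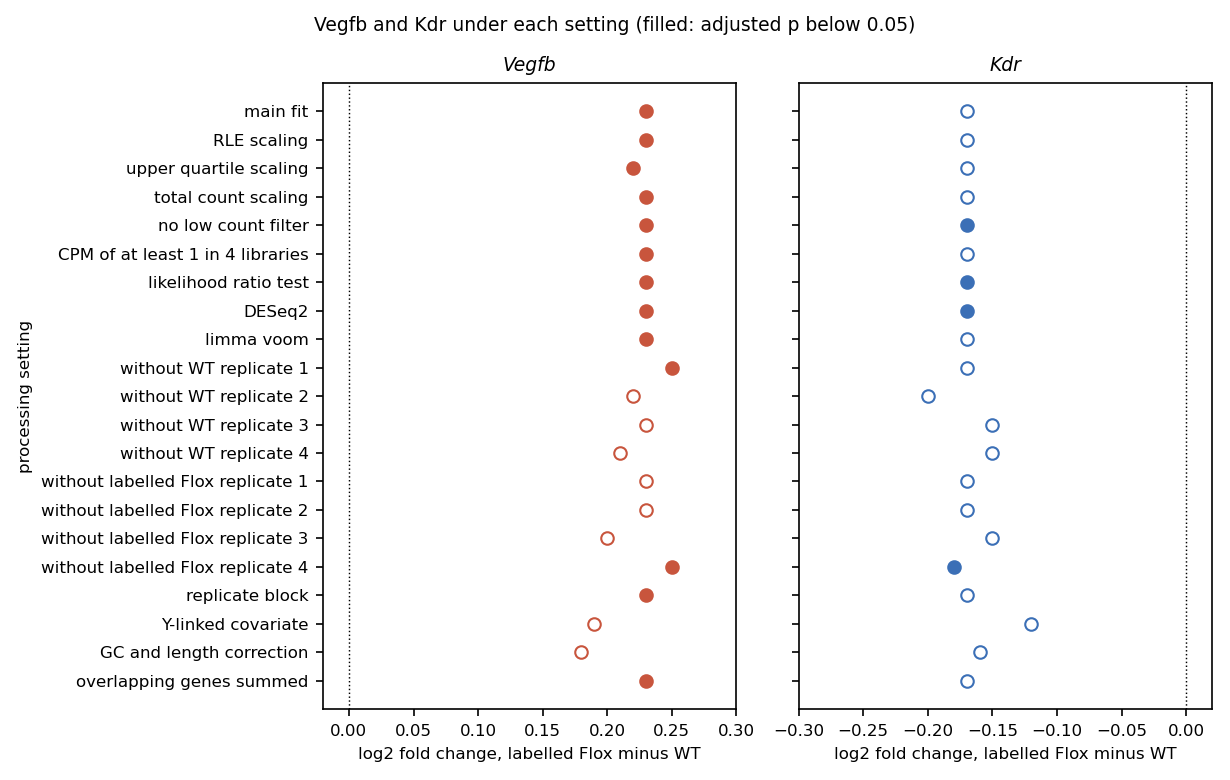
Log2 fold change (horizontal axes, labelled-Flox minus WT) of Vegfb and Kdr under the reported fit and 20 alternatives (vertical axis), filled where the adjusted p was below 0.05. Vegfb stayed between 0.18 and 0.25 and passed in 12 of 20 alternatives, and Kdr stayed between -0.20 and -0.12 and passed in 4 of 20.

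The genes whose pattern over the 8 libraries was most like that of selected members are given as a description, by Pearson's r of log2 CPM. They were picked as the highest among genes with a mean log2 CPM of at least 1, so high values follow from the choice, and the 8 points share the same group difference. For Kdr they were Emp1 (r = 0.974), Scd2, Ttc12, Hey1 and Id3 (r = 0.963). For Flt1 they were Col5a3 (r = 0.976), Mgat5, Fndc5, Dusp3 and Dpt (r = 0.944). For Vegfa they were Snx21 (r = 0.987), Sntb1, Aldh1a1, the myoglobin gene Mb and Mafk (r = 0.962). For Vegfb, which was added after its values were seen, they were Rbm24 (r = 0.988), Ncbp3, Srsf2, Fam104a and Spsb4 (r = 0.980).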

How the data were processed

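Poly(A) RNA from ventricles was made into directional libraries and sequenced as single reads, per the labels. The deposited values are expected counts of RSEM, 1 per Ensembl gene and library, unscaled for depth or length. Adapters were trimmed with cutadapt and counts made with RSEM 1.3.1 on GRCm38, according to the submitters' processing notes, with Ensembl release 91 by the table's name. The aligner and the strand setting are not given in the sources used here. Expected counts share ambiguous reads between genes, and 18.1% of values were not whole.

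Counts were rounded, filtered with filterByExpr by group (15388 of 53465 genes) and scaled with TMM factors (0.988 to 1.01). The test was edgeR's quasi-likelihood F test (version 4.0.16 in R 4.3.3, glmQLFit followed by glmQLFTest) with group as the only term. P-values were adjusted by Benjamini-Hochberg over the 15388 genes, with a threshold of 0.05. SE came from the F statistic. Symbols, positions and exon lengths came from GENCODE M21 on the same assembly, which matched 53360 identifiers, and promoter sequences from RefSeq (GRCm38.p6). No pair of libraries was alike within sampling noise (lowest chi-square over its degrees of freedom 2.98).

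Named were all members, Nrg1, the genes of any list past the threshold, the 3 of smallest p in each pathway or endothelial list, the 5 genes most like Kdr, Flt1 and Vegfa, and, outside that rule, Vegfd, Ccbe1, Adamts3, Angpt2, Cdh5, Acta2, the neighbours of Vegfb and the genes most like it, which were chosen after values were seen. The members and the 16 lists were chosen with earlier results of these data known. On simulated counts for 15388 genes, 93 of 100 genes changed by 1 on the log2 scale and 69 of 100 changed by 0.5 were recovered, and 13 of 175 calls were false. The fitted changes of all members were smaller than 0.5, and changes of that size were not simulated, so their recovery is not known. Alternatives were RLE, upper quartile and total scaling, other filters, the likelihood ratio test, DESeq2 1.42.0, limma 3.58.1 (voom), each library left out, a replicate block, a Y-linked covariate (the summed CPM of Ddx3y, Uty, Eif2s3y and Kdm5d), a GC and length correction (lowess, span 0.3) and summing of genes that overlap by at least 0.5 of the shorter one.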

Additional observations from a re-analysis of the deposited data

Results flagged for a closer look

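Of 70 groups of 4 values examined, 3 had a value set well apart from the rest (about 3.50 are flagged by chance), and none of them concerned a member. Nrarp was at 40.90 CPM in labelled-Flox library 1, against 45.03 to 45.80 CPM in the others of its group. Epas1 was at 84.04 CPM in labelled-Flox library 3, against 87.88 to 88.37 CPM. Lyve1 was at 6.066 CPM in labelled-Flox library 1, against 9.187 to 9.711 CPM.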

How the results depend on the processing

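The direction of 8 members held under all 20 alternatives, Vegfc being the exception (-0.06 to 0.01 when 1 library was left out, 0.01 without labelled-Flox library 2), and Lyve1 turned to 0.0020 with the Y-linked covariate. The number of members called was 1 (Vegfb). It was 2 (Vegfb and Kdr) without a low count filter, with the likelihood ratio test, with DESeq2 and at a threshold of 0.1. It was 0 at a threshold of 0.01, with the Y-linked covariate and with the GC and length correction, where 6, 3 and 7 members had an unadjusted p below 0.05 in edgeR. Leaving out 1 library gave 0 to 2, with 3 to 6 members at an unadjusted p below 0.05. The share of all tested genes at that level was 10.5% in the reported fit and is not given for the others. The member counts of those fits therefore have no background beside them. Over all genes, 81 calls became 338 without a filter, 242 with the likelihood ratio test and 195 with DESeq2. They became 57 with the GC and length correction, 18 with the Y-linked covariate, 3 at a threshold of 0.01 and 190 at 0.1. With 1 library left out, the calls ranged from 11 (without labelled-Flox library 3) to 142 (without labelled-Flox library 4). The 3 pathway genes called became 8 without a filter, 5 with DESeq2, 1 with the Y-linked covariate (Nrarp), 0 at a threshold of 0.01, and 1 to 3 when 1 library was left out. Nrg1 stayed between 0.27 and 0.40. The cause of these shifts was not tested. Fits on 7 libraries have fewer samples by construction, and the Y-linked covariate overlaps in part with the group difference.

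Same-numbered libraries deviated together weakly (correlations of 0.0447 to 0.1206, against -0.0877 to 0.0195 for the 12 other pairs), and every same-numbered pair lay above every other pair. The labels name no batch, and the number was not a term of the reported fit. Whether same-numbered libraries share a litter or batch was not tested. With the replicate number as a block, the count of members called stayed at 1 (Vegfb, adjusted p = 0.0171), Nos3 missed the threshold (adjusted p = 0.0571), and 93 genes were called, 59 of them among the 81.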

Other observations

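Markers of cells that surround the vessels were also measured. Of 8 mural genes, which mark pericytes and smooth muscle, 7 had a log2 fold change below 0, against 50.6% of all tested genes. Their median was -0.13 over all 8. None passed over all genes, and 5 had an unadjusted p below 0.05, against 10.5% of all tested genes. The remaining gene, Acta2, makes up 70.2% of their summed level and had a log2 fold change of 0.12 (unadjusted p = 0.00423, adjusted p = 0.184). The sum with Acta2 was 1852 to 1969 CPM in WT and 1897 to 2028 CPM in labelled-Flox libraries. Without it, a sum computed after the data were seen, the other 7 genes came to 569 to 635 CPM and 534 to 560 CPM, which did not overlap, and the geometric mean of all 8 did overlap (76.4 to 90.9 and 73.8 to 78.3 CPM). All 6 epicardial genes had a log2 fold change above 0 (median 0.12) without passing, at 140 to 153 and 151 to 168 CPM in sum. All 5 atrial genes had a log2 fold change below 0 (median -0.13), and 1 passed, against 50.6% and 0.526% of all tested genes. Kcnj3, a potassium channel gene, fell from a mean of 17.9 ± 0.299 CPM to 13.0 ± 1.45 CPM (SD, n = 4; log2 fold change -0.46, adjusted p = 0.0261, up to 0.111 over its alternatives). The call was lost without any one of the WT libraries, without labelled-Flox library 3 and with the Y-linked covariate (-0.53). Kcnj3 shares 1621 exonic bases with Gm26794 on the opposite strand. None of the 10 cardiomyocyte, 8 fibroblast, 8 macrophage or 7 erythroid genes passed, with median log2 fold changes of 0.03, -0.06, 0.03 and 0.11, and hepatocyte genes were too low to test (at most 1.96 CPM in sum). The plain sums of all 16 lists overlapped between the groups, but such sums are carried by their most abundant genes. Of 15 lists examined further, leaving out the most abundant gene separated the groups in 1 (mural), and the geometric mean separated them in 1 (pan-endothelial).

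The neighbours of Vegfb on chromosome 19 were chosen for their position. Dnajc4, which lies directly upstream of Vegfb, was at 17.5 ± 1.06 and 17.2 ± 0.694 CPM (SD, n = 4), and Fkbp2 on the other side at 18.6 ± 1.55 and 18.2 ± 0.786 CPM (SD, n = 4), with log2 fold changes of -0.02 for each (adjusted p = 0.942 and 0.947). Over the alternatives these ranged from -0.10 to 0.02 for Dnajc4 and from -0.08 to 0.01 for Fkbp2.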
